A study of Homo sapiens with 6 samples.

Results

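Cholesterol and fatty acid synthesis is followed here through 30 genes, picked by symbol for their roles out of the 54261 symbols of the count table: 4 regulators of the sterol response, 7 enzymes from acetoacetyl-CoA to farnesyl diphosphate, 10 enzymes of the sterol branch, 1 sterol transfer protein and 8 enzymes of fatty acid synthesis. All 30 had enough reads to be tested. They were measured by RNA sequencing in PC9/GR lung cancer cells, a human line, with 3 libraries of cells given a control small interfering RNA (si-NC) and 3 of cells given an siRNA against the long non-coding RNA MYLK-AS1. The series title places the question in EGFR inhibitor resistance and glutamine metabolism. Both groups come from this 1 line. The labels name no further siRNA against MYLK-AS1. Effects of losing MYLK-AS1 and other effects of the siRNA therefore cannot be told apart. The labels do not say that the replicates came from separate cultures, so the p-values measure only the spread between these libraries, which may be technical.

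Cells make cholesterol and fatty acids from cytosolic acetyl-CoA. Sterol regulatory element-binding proteins (SREBPs), encoded by SREBF1 and SREBF2, are made as membrane proteins of the endoplasmic reticulum. When membrane sterol is low, SCAP escorts them to the Golgi, where proteases release the part that enters the nucleus and switches on most enzymes of both pathways. When sterol is high, INSIG proteins hold SCAP back. SREBF2 is known mainly for the sterol genes and SREBF1 for the fatty acid genes, and growing tumour cells draw on both routes for new membrane.

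The libraries held between 7551303 and 11055408 counted reads. MYLK-AS1 had 20, 16 and 19 reads in the control libraries and 0, 5 and 4 in the knockdown libraries (log2 fold change -2.43, SE 0.60, adjusted p = 0.00326, edgeR). Levels are given as CPM, read counts scaled by the total of each library with TMM factors. The markers of lung epithelium were uneven: KRT7, KRT8 and KRT18 averaged 3990, 4160 and 4260 CPM in the control, while EPCAM was between 1.28 and 1.67 CPM there, NKX2-1 was under 1 CPM and SFTPB had 0 reads in all 6 libraries. The 9 epithelial markers summed to between 11846 and 13869 CPM in the control and between 7622 and 8227 CPM in the knockdown. Most of this sum was KRT7, KRT8 and KRT18, which fell (log2 fold changes -0.54, -0.67 and -0.78), as did EPCAM and CDH1 (-1.36 and -1.11). The epithelial markers did not all fall. KRT19 rose from 84 to 109 CPM (0.37, SE 0.10), and NAPSA did not pass (0.06, SE 0.40). The 6 fibroblast markers summed to 21.8 to 28.1 CPM and 28.4 to 36.3 CPM, with COL1A2 at 0 reads in all libraries. Most of this sum was COL1A1, which did not pass (log2 fold change 0.13, SE 0.14), while LUM rose from 0.482 to 3.45 CPM (2.75, SE 0.46). The 6 immune markers summed to 201 to 282 CPM and 282 to 323 CPM, mostly from CD68, with PTPRC and CD3E at 0 reads. CD68 rose (log2 fold change 0.56, SE 0.12), while CD14 fell from 35.3 to 21.6 CPM (-0.71, SE 0.15). The 5 endothelial markers stayed at or under 1.00 CPM in sum. The 13 mitochondrial mRNAs took 5.70% to 6.48% of the reads in the control and 4.78% to 5.17% in the knockdown. The part of the epithelial markers and of the mitochondrial share in the results below was not tested.

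Lipid synthesis transcripts were lower after the knockdown, with few exceptions. Of the 30 genes, 20 fell, 2 rose and 8 did not pass an adjusted p of 0.05. Among all 15391 tested genes, 42% changed by the same rule, 20.7% lower and 21.3% higher. The members' shares were 66.7% and 6.67%. The 30 were chosen with earlier results of these data known, so this contrast is a description and not an independent test. The median log2 fold change of the 30 was -0.51, against 0.00 over all tested genes, and 26 of the 30 had a value below 0. The changes were mostly modest. Of the 30, 9 fell by at least 1.5-fold, where 14% of all tested genes did. Falls of at least 2-fold were seen in 3 of the 30: FADS2, SREBF1 and MVD. Among all tested genes 7.35% fell that far, so the share at 2-fold was near that of all genes. CPM values did not overlap between the groups for 21 genes that were lower and 2 that were higher, where 52.2% of all tested genes did not overlap, 26.1% in each direction. Summed over the 30 genes, the level was 4776, 4862 and 4498 CPM in control replicates 1 to 3 and 3479, 3551 and 3328 CPM in knockdown replicates 1 to 3. Every knockdown library thus lay below every control library, at a mean of 73.3% of the control (4712 ± 190 against 3453 ± 114 CPM; SD, n = 3 each). SCD and ACLY, at means of 1040 and 1000 CPM in the control, weighed most in this sum. SCD fell to 57.3% of its control mean, and ACLY, at 92.2%, did not pass. Relative to the control mean, the median member stood at -0.50, -0.45 and -0.44 (log2) in knockdown replicates 1 to 3, so no single knockdown library carried the fall. In bulk RNA, fewer cells that express a gene and less RNA per cell cannot be told apart.

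**Figure D1:**
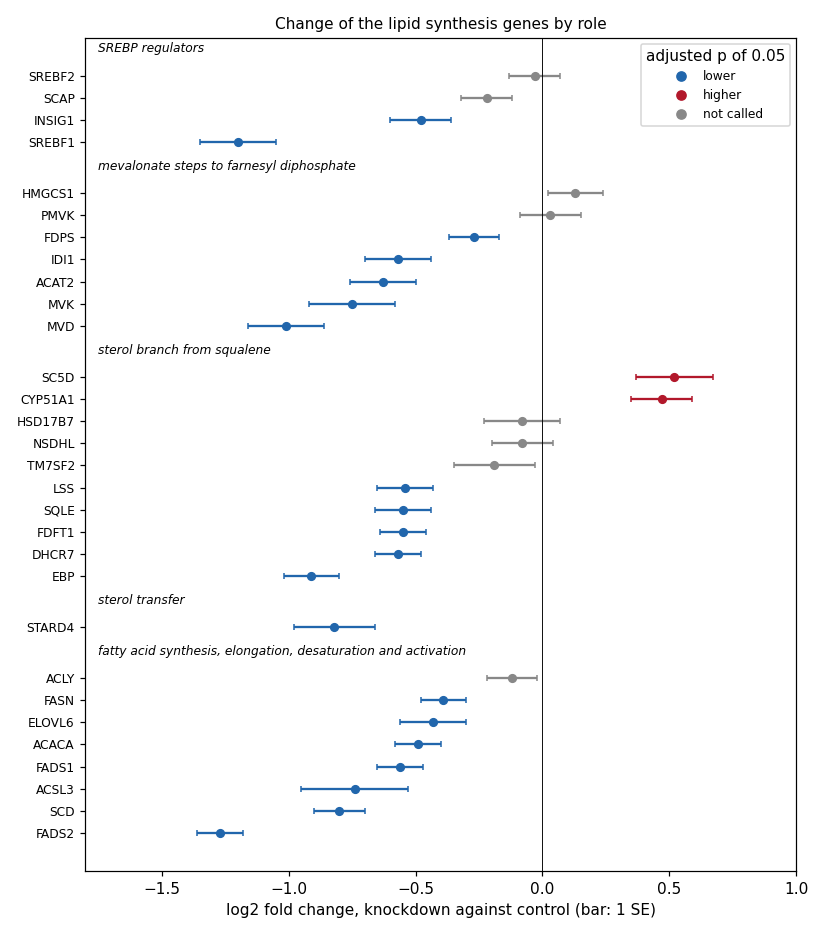
Log2 fold change of each of the 30 genes, knockdown against control, grouped by role, with bars of 1 SE and colours for the call at an adjusted p of 0.05. Of the 30 genes 20 lie to the left as lower, CYP51A1 and SC5D to the right as higher, and SREBF1, MVD and FADS2 reach past -1.

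Replicates were close for most of these genes. The coefficient of variation of a member's CPM had a median of 7.41% in the control and 8.53% in the knockdown, and was highest for MVD in the control (20.9%) and for ACSL3 in the knockdown (23.4%). The least covered value was 39 reads, for ACSL3 in knockdown replicate 3, and the highest 11279 reads, for SCD in the control.

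The 2 SREBP genes parted. SREBF1 lies at chr17:17810399-17837002 on the minus strand and SREBF2 at chr22:41833079-41907308 on the plus strand (GRCh38, GENCODE 29). SREBF1 stood at 62.9, 59.2 and 79.2 CPM in control replicates 1 to 3 and at 35.4, 26.8 and 24.7 CPM in knockdown replicates 1 to 3. Every knockdown library lay below 36 CPM and every control library above 59 CPM, and SREBF1 fell to 43.2% of the control mean (log2 fold change -1.20, SE 0.15, adjusted p = 5.3e-06). Of its exon bases 6.92% are shared with RAI1 on the other strand. SREBF2 stood at 140, 149 and 131 CPM in the control and 143, 145 and 123 CPM in the knockdown. Its groups overlapped, and its log2 fold change was -0.03 (SE 0.10, adjusted p = 0.85). Within a library the log2 ratio of SREBF1 to SREBF2 reads was -1.15, -1.33 and -0.73 in the control and -2.01, -2.44 and -2.32 in the knockdown. The ratio does not depend on library scaling. The groups did not overlap, with a difference of -1.18 (log2), or 44% of the control ratio. A two-sided exact permutation test gave p = 0.1, the smallest that 3 against 3 libraries allow, and an adjusted p of 0.1 over the 6 pairs of related genes compared.

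The promoters of both genes are shown because the sterol element, the DNA word to which SREBPs bind, is best known from promoters of this pathway. The 250 bases before the RefSeq start (GRCh38.p14) are printed 5′ to 3′ on the gene's strand. The SREBF2 window is chr22:41832855-41833104 on the plus strand and the SREBF1 window chr17:17836987-17837236 on the minus strand. Capitals mark the sterol element as TCACNCCAC, the E box CACGTG and the NF-Y word CCAAT, which reads ATTGG where it lies on the other strand.
SREBF2: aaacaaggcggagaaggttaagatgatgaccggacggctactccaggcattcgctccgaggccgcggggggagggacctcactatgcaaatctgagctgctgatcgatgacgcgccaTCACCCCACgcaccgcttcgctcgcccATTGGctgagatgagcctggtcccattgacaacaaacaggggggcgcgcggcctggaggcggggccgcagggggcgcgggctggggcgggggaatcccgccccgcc
SREBF1: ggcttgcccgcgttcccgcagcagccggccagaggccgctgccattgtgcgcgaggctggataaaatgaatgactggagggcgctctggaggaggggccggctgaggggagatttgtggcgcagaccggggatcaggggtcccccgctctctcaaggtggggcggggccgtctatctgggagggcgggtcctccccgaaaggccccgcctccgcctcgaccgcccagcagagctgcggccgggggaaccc
The SREBF2 window holds the sterol element 133 bases before the start and CCAAT on the other strand 106 bases before it. The SREBF1 window holds none of the 3 words. A match is a description of letters, and nothing follows from its absence.

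SCAP, the escort, and INSIG1, its anchor and itself a classic SREBP target, completed the regulators. INSIG1 stood at 61.7, 59.5 and 66.1 CPM in the control and 38.5, 49.6 and 46.7 CPM in the knockdown. All knockdown libraries were lower, and INSIG1 fell (log2 fold change -0.48, SE 0.12, adjusted p = 0.0035). Its log2 read ratio to INSIG2, the isoform less tied to SREBPs, went from 1.28 ± 0.07 to 0.53 ± 0.28 (SD, n = 3 each), a difference of -0.75 without overlap (two-sided exact permutation p = 0.1, adjusted p = 0.1). SCAP stood at 81.9, 86.7 and 88.0 CPM and 78.7, 73.4 and 67.8 CPM. Its groups did not overlap either, but its log2 fold change of -0.22 (SE 0.10) did not pass (adjusted p = 0.0842). The log2 fold change of SCAP passed when only genes with at least 5 CPM in 3 libraries were tested (adjusted p = 0.044).

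**Figure D2:**
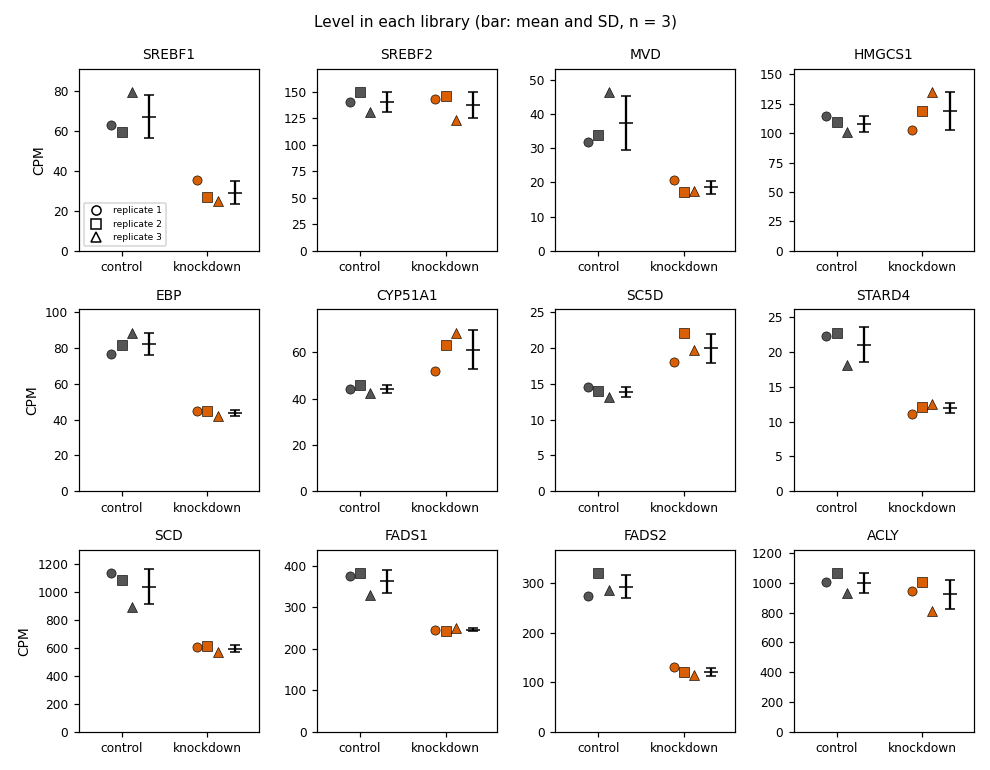
CPM of 12 of the genes in each library, with an axis from 0 per gene, a symbol per replicate number and a bar for the mean and SD of 3 libraries. SREBF1, MVD, EBP, STARD4, SCD, FADS1 and FADS2 part downward and CYP51A1 and SC5D upward, while SREBF2, HMGCS1 and ACLY overlap.

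In the mevalonate steps, which join acetyl-CoA units into the isoprene chain farnesyl diphosphate, 5 of 7 genes fell and 0 rose. The share that fell was 71.4%, against 20.7% of all tested genes. HMGCS1, the cytosolic HMG-CoA synthase near the top of the route, did not follow. It stood at 114, 109 and 101 CPM in the control and 103, 119 and 135 CPM in the knockdown. The groups overlapped, with the highest value in knockdown replicate 3 (log2 fold change 0.13, SE 0.11, adjusted p = 0.339). PMVK, the phosphomevalonate kinase, overlapped too (0.03, SE 0.12, adjusted p = 0.846).

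MVD, which removes the carboxyl group from mevalonate diphosphate, showed the deepest fall of this route. It stood at 31.9, 33.9 and 46.3 CPM in the control and 20.7, 17.3 and 17.6 CPM in the knockdown. The control spread was wide, with replicate 3 highest, yet all knockdown libraries lay under 21 CPM (log2 fold change -1.01, SE 0.15, adjusted p = 5.36e-05). MVK, the mevalonate kinase, stood at 19.7, 16.7 and 21.2 CPM and 11.9, 9.96 and 12.6 CPM. Its knockdown libraries were all lower (log2 fold change -0.75, SE 0.17, adjusted p = 0.00145). ACAT2, the cytosolic thiolase that makes acetoacetyl-CoA, fell from 44.4 ± 3.92 to 28.7 ± 3.17 CPM (mean ± SD of 3 libraries each, log2 fold change -0.63, SE 0.13), and IDI1, the isopentenyl diphosphate isomerase, from 52.7 ± 3.99 to 35.8 ± 6.39 CPM (-0.57, SE 0.13).

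FDPS, which builds farnesyl diphosphate, had the least of the falls, from 127 ± 8.15 to 106 ± 8.66 CPM (mean ± SD of 3 libraries each, -0.27, SE 0.10, adjusted p = 0.033). The log2 fold change of FDPS no longer passed without control replicate 2 (adjusted p = 0.0672), control replicate 3 (0.0744), knockdown replicate 1 (0.138) or knockdown replicate 2 (0.1). FDPS also has 8 annotated pseudogenes with which reads may be shared.

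Of these genes ACAT2, MVK, FDPS, HMGCS1 and IDI1 share exon bases with genes on the other strand, and no source used here says whether counting used strand. Of the ACAT2 exon bases 33.9% are also annotated to the non-coding SOD2-OT1, which was not tested, 26.5% to SOD2, the mitochondrial superoxide dismutase (log2 fold change -0.85), and 9.23% to TCP1, a chaperonin subunit (0.62), so its reads cannot be fully told apart from theirs. MVK shares 4.72% with MMAB, an enzyme of cobalamin metabolism (-0.51). Antisense genes that were not tested overlap 18.6% of the FDPS, 15% of the HMGCS1 and 14.8% of the IDI1 exon bases. The mitochondrial thiolase gene ACAT1 fell too, from 4.22 ± 0.111 to 0.608 ± 0.382 CPM (log2 fold change -2.76, SE 0.40), at few reads. The log2 ratio of ACAT2 to ACAT1 reads went from 3.38 ± 0.09 to 5.58 ± 0.61 (SD, n = 3 each; two-sided exact permutation p = 0.1, adjusted p = 0.1).

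In the sterol branch, from squalene to cholesterol, 5 of 10 genes fell (50%) and 2 rose (20%). Among all tested genes 20.7% fell and 21.3% rose, so the share that rose was near that of all genes. The squalene synthase FDFT1, the squalene epoxidase SQLE and the lanosterol synthase LSS act in succession at its head, and all 3 fell by similar amounts. FDFT1 stood at 246, 259 and 273 CPM in the control and 177, 172 and 184 CPM in the knockdown (-0.55, SE 0.09). SQLE went from 79.8 ± 5.24 to 54.6 ± 3.6 CPM (-0.55, SE 0.11) and LSS from 63.5 ± 2.56 to 43.5 ± 3.57 CPM (-0.54, SE 0.11; SD, n = 3 each). The groups did not overlap for any of the 3.

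The enzymes that trim lanosterol came next. CYP51A1, the lanosterol 14-demethylase, stood at 44.2, 45.7 and 42.6 CPM in the control and 52.0, 63.1 and 68.4 CPM in the knockdown. All knockdown libraries were higher, and CYP51A1 rose (log2 fold change 0.47, SE 0.12, adjusted p = 0.00441). Of its exon bases 79.4% are also annotated to AC000120.2, a gene model on the same strand, and with 3 annotated pseudogenes besides, its count is uncertain. TM7SF2, a sterol 14-reductase, NSDHL, which acts in removal of the methyl groups at carbon 4, and HSD17B7, the ketoreductase of that step, overlapped between the groups. Their log2 fold changes were -0.19 (SE 0.16), -0.08 (SE 0.12) and -0.08 (SE 0.15).

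The last steps went in both directions. EBP, the sterol isomerase, stood at 76.5, 81.8 and 88.4 CPM in the control and 44.9, 44.8 and 41.9 CPM in the knockdown. The knockdown libraries were within 4 CPM of each other and near 53.3% of the control mean (log2 fold change -0.91, SE 0.11, adjusted p = 3.08e-06). SC5D, the sterol 5-desaturase that acts on the product of EBP, stood at 14.57, 13.97 and 13.18 CPM and 18.1, 22.1 and 19.7 CPM. All knockdown libraries were higher and SC5D rose (log2 fold change 0.52, SE 0.15, adjusted p = 0.0102). Without knockdown replicate 2 the log2 fold change of SC5D did not pass (0.44, adjusted p = 0.0638). DHCR7, the reductase after SC5D, fell from 125 ± 6.46 to 84.4 ± 3.59 CPM (mean ± SD of 3 libraries each, log2 fold change -0.57, SE 0.09).

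STARD4, which carries sterol between membranes, stood at 22.2, 22.7 and 18.1 CPM in the control and 11.1, 12.1 and 12.6 CPM in the knockdown. All knockdown libraries were lower (log2 fold change -0.82, SE 0.16, adjusted p = 0.000441).

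Fatty acid genes fell almost throughout: 7 of 8 passed as lower (87.5%, against 20.7% of all tested genes), with a median log2 fold change of -0.52. The exception stands at the entry. ACLY, which makes cytosolic acetyl-CoA from citrate for both pathways, was at 1009, 1064 and 930 CPM in the control and 946, 1009 and 813 CPM in the knockdown. The groups overlapped (-0.12, SE 0.10, adjusted p = 0.356). ACSS2, which makes acetyl-CoA from acetate, had 0.07 (SE 0.11, adjusted p = 0.649). The log2 ratio of ACLY to ACSS2 reads was 4.18 ± 0.14 in the control and 3.99 ± 0.06 in the knockdown (SD, n = 3 each), without overlap (two-sided exact permutation p = 0.1, adjusted p = 0.1).

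ACACA, the acetyl-CoA carboxylase that commits carbon to fatty acids, stood at 138, 135 and 122 CPM in the control and 94.8, 90.2 and 97.6 CPM in the knockdown. It fell (log2 fold change -0.49, SE 0.09, adjusted p = 0.000499), while its mitochondrial counterpart ACACB was under 1 CPM in all 6 libraries and was not tested. The fatty acid synthase FASN stood at 262, 252 and 261 CPM and 208, 198 and 186 CPM. Its control libraries lay within 11 CPM of each other, and all knockdown libraries were lower (log2 fold change -0.39, SE 0.09, adjusted p = 0.00166). ELOVL6, which lengthens palmitate, fell from 36.5 ± 4.39 to 27.1 ± 1.43 CPM (mean ± SD of 3 libraries each, -0.43, SE 0.13, adjusted p = 0.0133). The log2 fold change of ELOVL6 no longer passed without control replicate 1 (adjusted p = 0.0502), control replicate 2 (0.0808) or knockdown replicate 1 (0.0507). ACSL3, an acyl-CoA ligase of the endoplasmic reticulum and lipid droplets, fell from 12.1 ± 2.42 to 7.17 ± 1.67 CPM (-0.74, SE 0.21), and the log2 fold change of ACSL3 did not pass without control replicate 2 (adjusted p = 0.0564).

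The desaturases, which set double bonds into fatty acyl chains, included FADS2, the largest fall of the 30 in log2 fold change. SCD, which makes oleate (chr10:100347124-100364834, plus strand), stood at 1131, 1087 and 892 CPM in the control and 605, 609 and 566 CPM in the knockdown. Control replicate 3 was lowest in its group and still above all knockdown libraries (log2 fold change -0.80, SE 0.10, adjusted p = 5.35e-06). Its relative SCD5 did not pass (-0.02, SE 0.13), and the log2 ratio of SCD to SCD5 reads went from 5.09 ± 0.06 to 4.31 ± 0.15 (SD, n = 3 each; difference -0.78, two-sided exact permutation p = 0.1, adjusted p = 0.1).

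FADS2, the delta-6 desaturase (chr11:61792980-61867354, plus strand), stood at 274, 320 and 286 CPM in the control and 130, 120 and 114 CPM in the knockdown. Its knockdown libraries lay near 41.4% of the control mean (log2 fold change -1.27, SE 0.09, adjusted p = 1.79e-08), and 4.8% of all tested genes had a lower log2 fold change. FADS1, the delta-5 desaturase, stood at 375, 381 and 330 CPM and 244, 242 and 251 CPM and fell as well (log2 fold change -0.56, SE 0.09, adjusted p = 8.15e-05). These 2 genes are neighbours on chromosome 11 in opposite orientation and share 490 annotated exon bases, 4.44% of those of FADS2, so a small part of their reads cannot be told apart without strand. The log2 ratio of FADS2 to FADS1 reads was -0.45, -0.25 and -0.20 in the control and -0.91, -1.01 and -1.13 in the knockdown. The groups did not overlap, with a difference of -0.72 (two-sided exact permutation p = 0.1, adjusted p = 0.1).

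**Figure D3:**
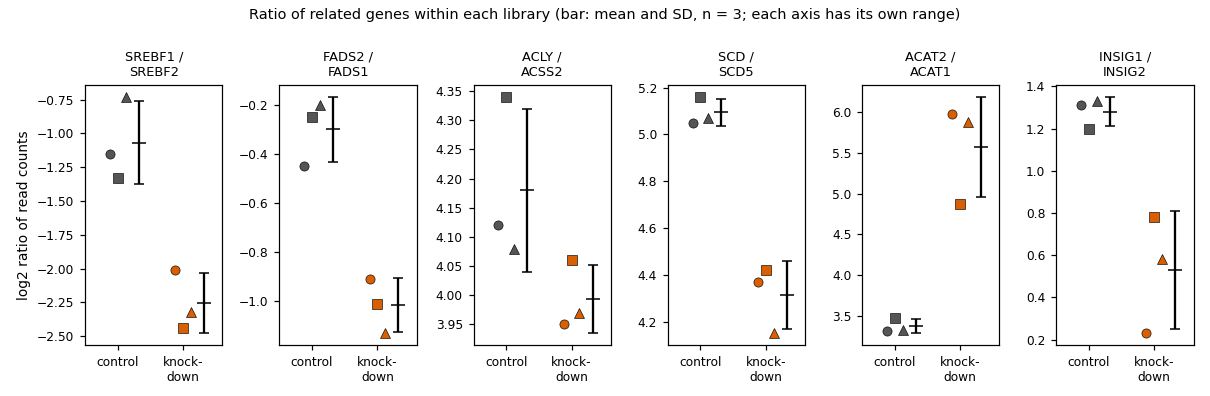
Log2 ratio of the read counts of 2 related genes within each library, for the 6 pairs with both genes tested, with a bar for the mean and SD of 3 libraries and its own axis range per pair. Control and knockdown part in each pair, downward in 5 and upward for ACAT2 against ACAT1.

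Per kilobase of annotated exon, SCD and ACLY led in the control, at 193 ± 23.7 and 192 ± 12.9 CPM per kb (SD, n = 3 each), which did not differ beyond their spread. FDFT1 followed at 49.9 ± 2.57 and PMVK at 46.7 ± 4.67 CPM per kb, again within their spread. At the low end were MVK at 2.96 ± 0.358, SC5D at 2.50 ± 0.125 and ACSL3 at 1.67 ± 0.335 CPM per kb. In the knockdown ACLY stood at 177 ± 19.1 and SCD at 111 ± 4.40 CPM per kb. SREBF2 was above SREBF1 in both groups, at 18.5 ± 1.20 against 8.35 ± 1.33 CPM per kb in the control and 18.2 ± 1.61 against 3.61 ± 0.707 CPM per kb in the knockdown. FADS2 went from rank 10 to rank 17 of the 30 genes.

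Promoter words were counted over 35 RefSeq windows of 26 of the 30 genes, each from 250 bases before to 50 after a start. The NF-Y word CCAAT was in 24 of the 35 windows (68.6%), against 34.3% of the 13906 windows of tested genes. By gene, 20 of the 26 had it. Windows of 1 gene can overlap, so a site can count more than once, as in ACLY and SC5D. NF-Y is a partner of SREBPs at several sterol promoters. The sterol word CACCCCAC and the consensus TCACNCCAC were each in 1 window, that of SREBF2 (2.86%, against 2.65% and 1.03% of tested-gene windows). The consensus was added after the first count and overlaps the sterol word there. CACGTG was in 14.3% (5 windows of 4 genes) against 9.36%, and the GC box GGGCGG in 88.6% against 66.6%. Both strands were searched. The upstream windows of 3 genes that fell are printed for their words: MVD, the deepest fall among the mevalonate genes, at chr16:88663092-88663341 (minus strand), EBP, the deepest of the sterol branch, at chrX:48521558-48521807 (plus strand), and INSIG1 at chr7:155297628-155297877 (plus strand).
MVD: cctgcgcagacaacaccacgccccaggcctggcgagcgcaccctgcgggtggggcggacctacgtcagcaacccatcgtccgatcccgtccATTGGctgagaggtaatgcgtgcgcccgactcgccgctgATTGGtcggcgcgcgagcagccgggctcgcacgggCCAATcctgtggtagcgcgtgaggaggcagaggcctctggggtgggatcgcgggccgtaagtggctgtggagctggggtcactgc
EBP: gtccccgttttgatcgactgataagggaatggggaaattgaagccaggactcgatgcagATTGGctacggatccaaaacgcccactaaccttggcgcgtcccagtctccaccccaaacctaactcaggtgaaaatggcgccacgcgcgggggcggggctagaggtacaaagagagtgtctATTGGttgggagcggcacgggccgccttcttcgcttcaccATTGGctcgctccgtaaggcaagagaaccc
INSIG1: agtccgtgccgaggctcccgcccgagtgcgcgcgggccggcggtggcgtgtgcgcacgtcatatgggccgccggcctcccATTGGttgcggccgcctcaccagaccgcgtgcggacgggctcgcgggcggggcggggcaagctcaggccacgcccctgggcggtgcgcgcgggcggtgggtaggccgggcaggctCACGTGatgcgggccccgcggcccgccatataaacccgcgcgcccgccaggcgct
Capitals mark CCAAT or ATTGG, 3 times in MVD, 3 times in EBP and once in INSIG1, and CACGTG once in INSIG1. Genes that did not fall held CCAAT as well: ACLY, HMGCS1, HSD17B7, NSDHL, SC5D, SREBF2 and TM7SF2 each have it in a window. SREBF1, FADS1 and ELOVL6 fell and do not.

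A word of 6 bases, AGCTTA, in 3′ untranslated regions had been noted in these data to go with lower transcripts, so the members were searched for it. It was in the longest annotated 3′ untranslated region of 6 of the 30 genes: INSIG1, MVK, NSDHL, STARD4, ELOVL6 and ACSL3. Of these, 5 fell and NSDHL did not pass. Among the 24 members without it, 15 fell and 2 rose, with a median log2 fold change of -0.51. Of the 11581 tested genes with an annotated 3′ region, 20.0% fell and 24.9% rose, and 23.7% of those with the word and 18.5% of those without it fell. Members that lack the word were thus lower as well. The regions with the word are longer (median 2992 against 1222 bases over these genes), which was not adjusted for. The sites in MVK, where the word is flanked by C and A, and in STARD4 are printed as examples, with AGCTTA in capitals, 1443 and 2114 bases after the stop codon.
MVK: gacgcctaccccAGCTTAacttgtagaaat
STARD4: taatgataaaaaAGCTTAatgatgtgggtt

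Genes around the pathway moved in both directions. Of 131 further genes in 9 lists, 115 were tested, of which 27 fell (23.5%) and 31 rose (27%). These shares were near those of all tested genes, of which 20.7% fell and 21.3% rose. Without knockdown replicate 2 the number that rose was 20. The median log2 fold change was 0.05.

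Of 10 tested genes of SREBP processing and sterol sensing, 4 rose (40%) and 1 fell (10%), against 21.3% and 20.7% of all tested genes. RNF139, a ubiquitin ligase of the endoplasmic reticulum, rose (log2 fold change 0.74, SE 0.12, adjusted p = 9.97e-05), as did SPRING1 (0.59, SE 0.11), which supports SREBP processing. MBTPS1, the site-1 protease that makes the first cut in SREBPs, fell from 225 ± 8.29 to 168 ± 5.65 CPM (mean ± SD of 3 libraries each, log2 fold change -0.42, SE 0.09). Without knockdown replicate 2, 2 genes of this list rose. INSIG2 had 0.27 (SE 0.13, adjusted p = 0.0954).

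Among 8 tested sterol synthesis genes outside the 30, 3 fell (37.5%) and 2 rose (25%), against 20.7% and 21.3% of all tested genes. LBR, a sterol 14-reductase that also anchors heterochromatin to the nuclear lamina, stood at 90.0, 100 and 72.3 CPM in the control and 28.0, 22.8 and 23.8 CPM in the knockdown, without overlap (log2 fold change -1.81, SE 0.14). ACAT1, given above, was another. MSMO1, which oxidises the methyl groups at carbon 4 after CYP51A1 has acted, rose from 36.3 ± 1.66 to 50.7 ± 11.9 CPM (0.48, SE 0.14), with its highest value in knockdown replicate 3. Without knockdown replicate 2 or knockdown replicate 3, 1 gene of this list rose.

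Of 24 tested genes of fatty acid synthesis, elongation and activation outside the 30, 4 rose and 4 fell (16.7% each). Among all tested genes 21.3% rose and 20.7% fell. The elongases ELOVL2 (-1.25, SE 0.14) and ELOVL1 (-0.60, SE 0.10) fell, while the malic enzyme ME1, a source of NADPH, rose from 68.3 ± 3.35 to 114 ± 6.63 CPM (0.74, SE 0.10) and the acyl-CoA ligase ACSL5 rose from a low level (0.930 ± 0.304 to 4.64 ± 0.266 CPM; 2.30, SE 0.34; SD, n = 3 each). The number that fell was 2 without control replicate 1, knockdown replicate 1 or knockdown replicate 2, and the number that rose was 2 without knockdown replicate 2 and 1 with a filter of 5 CPM in 3 libraries.

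In sterol uptake and trafficking, 5 of 14 tested genes rose (35.7%) and 4 fell (28.6%), against 21.3% and 20.7% of all tested genes. LRP8 (0.57, SE 0.11), a lipoprotein receptor, and SCARB1 (0.37, SE 0.09), the receptor for high-density lipoprotein, rose, and TMEM97 (-0.57, SE 0.12), a sterol-responsive membrane protein, fell. The number that rose was 3 without control replicate 1, 2 or 3 or knockdown replicate 2, and the number that fell was 2 without control replicate 1 or knockdown replicate 3. Among 8 tested genes of the liver X receptor and sterol efflux, 3 fell (37.5%) and 0 rose. Those that fell included LPCAT3 (-0.60, SE 0.11), which places polyunsaturated chains into phospholipids, and RXRB (-0.43, SE 0.12).

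In the non-sterol branches of the mevalonate pathway, 6 of 9 tested genes rose (66.7%) and 2 fell (22.2%). Among all tested genes 21.3% rose and 20.7% fell, so the share that fell was near that of all genes. FNTA, a subunit of protein prenyltransferases, rose from 19.0 ± 1.74 to 27.1 ± 3.35 CPM (0.51, SE 0.14) and PDSS1, which makes the tail of coenzyme Q, from 1.21 ± 0.386 to 3.33 ± 0.377 CPM (1.44, SE 0.35). GGPS1, which makes geranylgeranyl diphosphate, fell from 33.4 ± 1.79 to 14.7 ± 3.39 CPM (-1.19, SE 0.16), as did PDSS2 (-0.76, SE 0.21). The number that rose was not stable, at 3 without control replicate 2, 2 without control replicate 3 and 3 without knockdown replicate 2.

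For storage as sterol esters and triglycerides, 5 of 15 tested genes rose (33.3%) and 3 fell (20%), against 21.3% and 20.7% of all tested genes. ABHD5, the activator of triglyceride lipase, rose (1.14, SE 0.16), as did the acyltransferase GPAM (0.79, SE 0.17), and the lipase PNPLA2 (-0.62, SE 0.10) and the phosphatase LPIN2 (-0.61, SE 0.11) fell. Without control replicate 2, 3 rose. Of 20 tested genes of fatty acid oxidation, 3 rose (15%) and 4 fell (20%). CPT2 rose from 24.9 ± 0.229 to 48.2 ± 3.00 CPM (0.95, SE 0.12) with the carnitine carrier SLC25A20 (0.73, SE 0.14), and CPT1A, the enzyme at the entry to the mitochondrion, fell from 131 ± 11.7 to 96.4 ± 3.50 CPM (-0.44, SE 0.10), with ACADS (-0.46, SE 0.12). Of 7 genes of the AMP-activated kinase, which restrains ACACA, 2 rose (28.6%) and 3 fell (42.9%). The subunits PRKAA2 (0.80, SE 0.15) and PRKAB2 (0.66, SE 0.13) were higher, and STK11 (-0.67, SE 0.12), the kinase that activates it, and PRKAG2 (-0.68, SE 0.13) lower.

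**Figure D4:**
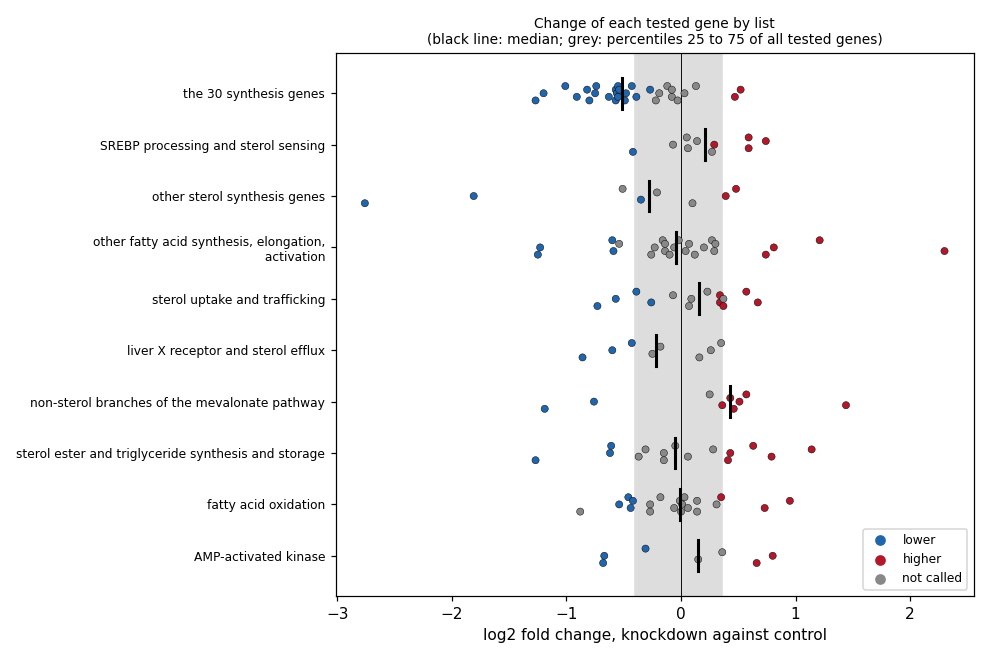
Log2 fold change of each tested gene, knockdown against control, for the 30 synthesis genes and the 9 lists of other pathway genes, with a black line at each median and a grey band from percentile 25 to 75 of all tested genes (-0.40 to 0.36). The median of the 30 (-0.51) lies left of the band, and the medians of 8 of the 9 other lists lie inside it, that of the non-sterol branches being at 0.43.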

How the data were processed

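The authors deposited whole-number read counts by gene symbol for 6 libraries. Per the labels' protocols, RNA was taken up in Trizol and libraries came from an Ion Proton kit. The submitters' processing notes name GRCh38. Aligner, counter, annotation and strand use: not given in the sources used here. Groups and repeat numbers came from the sample titles. The 30 genes, the lists and the 3′ word were chosen with earlier results of these data known.

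The whole table was fitted with edgeR 4.0.16 in R 4.3.3: genes kept by filterByExpr, scaling by TMM, a robust quasi-likelihood model, the two-sided F test and Benjamini-Hochberg adjustment over 15391 genes, with a threshold of 0.05. SE is the log2 fold change divided by the square root of F. The fit was tested on simulated data, where the share of false calls was above the nominal rate. Counts of calls may thus hold more false ones than the threshold implies. Calls near the threshold are less certain than their adjusted p. Ratios of 6 gene pairs were taken on counts plus 0.5. Exons and 3′ regions came from GENCODE 29, promoters from RefSeq (GRCh38.p14). SPRING1 and ERG28 were matched by older symbols. All 30 genes are named, and in each list up to 4 called genes of lowest p. Some of the genes it selects are left out of the text. Alternatives were RLE, upper quartile or no factors, no or a stricter filter, DESeq2 1.42.0, limma-voom 3.58.1, a replicate block, and each library left out.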

Additional observations from a re-analysis of the deposited data

How the results depend on the processing

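Of 420 refitted log2 fold changes of the 30 genes, over 14 alternative fits, 410 kept their side of the threshold. All 308 of the 22 called genes kept their direction, while 5 of HSD17B7, PMVK and SREBF2, which were not called, changed sign, at -0.08 to 0.05. The 18 of 22 calls that held in all 14 exclude ACSL3, ELOVL6, FDPS and SC5D, each lost only when a library was left out. The number of the 30 that fell was 20 under RLE, upper quartile or no factors, no filter, DESeq2 and limma-voom, and 21 with a filter of 5 CPM in 3 libraries. It was 17 to 20 with 1 library left out, 17 at an adjusted p of 0.01 and 9 at 1.5-fold or more. The number that rose was 1 to 2 with 1 library left out, 1 at an adjusted p of 0.01 and 0 at 1.5-fold or more. Of other pathway genes, 20 to 31 rose with 1 library left out. Of 392 counts for single lists, 19 moved by over 1.5 times, all 19 downward, 18 of them when a library was left out. The 48 alternative pair values kept their direction. With the replicate block, 20 members fell, and it changed no call of the 30. Same-numbered libraries deviated together with correlations of -0.048, 0.067 and 0.054, so the numbers were not taken to pair them. A gene of 0 reads could be at up to 0.274 to 0.410 CPM (3 reads), counting error only.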
